A study of Mus musculus with 6 samples.

Results

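The genes described here are 38 components of the mouse DNA replication machinery, taken by gene symbol from a table of 54532 rows. Each symbol matched 1 row, and all 38 were among the 12654 genes tested, those with a mean of at least 0.5 FPKM. FPKM are fragments per kilobase of gene, scaled by a total for each library that differed from its sum of reads. The table holds 6 RNA sequencing libraries of CD8 T cells, the cytotoxic T cell lineage, from spleen and lymph nodes. All cells had been stimulated through CD3 and CD28 with antibody-coated beads for 3 days in culture, so both groups consist of activated cells. One group is labelled wild type (WT, n = 3) and the other PTPMT1 knockout (KO, n = 3). PTPMT1 is a mitochondrial phosphatase needed to make cardiolipin. The sources used here do not give the strain, age or sex of the mice, a Cre line or the deleted exons. They also leave unsaid whether each replicate was its own animal. The p-values therefore reflect only how much these samples vary, and part of that may be technical. Activated CD8 T cells divide within days, and the comparison bears on whether the genes that copy their DNA differ between the groups.

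DNA is copied once per cell cycle. In G1 the origin recognition complex, Cdc6 and Cdt1 load the ring-shaped MCM helicase onto origins, and in S phase the kinase Cdc7 together with Mcm10, Cdc45 and the GINS complex switches that helicase on. Polymerases then extend primers on both strands, held by the sliding clamp PCNA, while other enzymes supply nucleotides, join fragments and rebuild chromatin. Many of these genes are transcribed at the G1/S boundary by E2F factors, and in T cells their mRNA climbs as resting cells enter division.

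Ptpmt1, the check of the labels, stood at 3.75, 3.84 and 4.13 FPKM in WT and at 1.0004, 1.58 and 1.504 FPKM in KO, replicates 1 to 3. Its log2 fold change was -1.26 with an SE of 0.198 (limma adjusted p = 0.0884), with no overlap between groups. Whole reads rebuilt from the table summed to 14932604 to 16819913 per library. KO replicates 2 and 3 stood apart in opposite directions. Mitochondrial genes took 7.53% of reads in KO replicate 2, 2.38% in KO replicate 3 and 3.38% to 4.77% elsewhere. The share of ribosomal protein genes was 19.0%, 10.9% and 12.8% to 15.2% in the same order. In KO replicate 3 there were 0 reads of Xist, the RNA of the inactive X chromosome, and 1837 of the Y-linked Ddx3y, whereas the other 5 libraries had at least 3513 and 0. By these genes KO replicate 3 was male and the other 5 libraries female. Sex thus differed within KO, and KO replicate 3 did not share its animal with another library. Markers of CD8 T cells were present in every library but lay lower in KO: 0 of 8 had a higher mean there (52.4% of all tested genes). In limma 4 of them were lower with an unadjusted p under 0.05 (10.2% of all genes). They summed to 1667 to 2062 FPKM in WT and to 1607, 1859 and 1071 FPKM in KO replicates 1 to 3. Cd8a ran from 181.7 to 219 FPKM in WT and from 108.8 to 145.0 in KO, and Cd3e from 37.7 to 42.7 and from 20.4 to 31.9. Both were lower without overlap (13.3% of all genes), as were Cd2 and Trac. Cd3d, Cd3g, Lck and Cd8b1 overlapped. In KO replicate 2, Cd3d (487.9 FPKM), Cd3g (200.4) and Lck (224.0) even exceeded every WT library. Markers of CD4 and regulatory T cells summed to 7.35 to 9.15 FPKM in WT and to 5.47 to 10.48 in KO. Of these 5 markers 1 had a higher mean in KO (52.4% of all tested genes). Cd4 reached 1.86 FPKM at most, while Zbtb7b had 0.66, 1.22 and 1.20 FPKM in WT and 2.02, 1.62 and 5.44 in KO. Markers of B cells summed to 318.8 to 408.3 FPKM in WT and to 258.2 to 332.3 in KO, with 1 of 8 higher in KO. Most of that sum was Ighm, at 242.7 to 386.8 FPKM. Markers of natural killer and gamma-delta T cells summed to 27.6 to 56.0 FPKM in WT and to 28.6, 66.7 and 175.3 FPKM in KO replicates 1 to 3. Of these 9 markers 6 had a higher mean in KO (52.4% of all tested genes). The largest in KO replicate 3 were Tcrg-C2 (62.7 FPKM), Tcrg-C4 (59.1), Tcrg-C1 (29.8) and Trdc (22.2). Ncr1 (0.25) and Klrb1c (0.17) lay within and below their WT ranges there. Markers of myeloid cells summed to 11.4 to 24.6 FPKM in WT and to 20.7, 13.3 and 55.7 FPKM in KO. Of these 14 markers 10 had a higher mean in KO (52.4% of all tested genes). Cpa3 was the largest in KO replicate 3, at 25.9 FPKM, followed by Ms4a2 (5.91), Mpo (5.65) and Fcer1g (5.14). Cd68 was lower in every KO library, at 1.39 to 1.98 FPKM against 2.62 to 3.44 in WT. Neither the myeloid nor the natural killer and gamma-delta list had a marker at 0 in all 6 libraries. The part of these cells in the results below was not tested.

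As a group the replication genes lay higher in KO by a modest margin, and no single member passed the test over all genes. The mean was higher in KO for 37 of 38 members (52.4% of all tested genes), with a median log2 fold change of 0.35 against 0.03 for all genes. The fold change is taken on the log2(FPKM + 0.5) scale, which understates the change of low genes. In limma 0 members had a Benjamini-Hochberg adjusted p under 0.05 (0.0395% of all genes were called), and limma-voom on the rebuilt reads also called 0 (0.0079% of all genes). At an unadjusted p under 0.05 limma gave 7 members higher in KO (11.5% of all genes) and 0 lower (10.2% of all genes): Orc1, Mcm6, Cdc45, Gins2, Rfc3, Pola1 and Tyms. Limma-voom also gave 7 (11.5% of all genes). The 3 KO values lay above the 3 WT values in 14 members (14.5% of all genes) and below them in 0 (13.3% of all genes). Each of those 14 had p = 0.1 in the exact permutation test (2-sided), the smallest value that 3 against 3 samples allow. In bulk RNA, a larger share of cells in S phase and more of these mRNAs per cell cannot be told apart.

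The height of this difference depends on the scaling of the libraries. The deposited FPKM columns do not share a total: they sum to 413435, 387777 and 364030.5 in WT and 474629, 605554 and 357607 in KO replicates 1 to 3. The total that scales each library was 0.995, 1.028 and 1.072 times its rebuilt reads in WT. In KO replicates 1 to 3 it was 0.941, 0.780 and 1.096 times. As a plain share of rebuilt reads the members took 0.565%, 0.540% and 0.713% in WT and 0.774%, 0.665% and 0.729% in KO, with overlap. With every library rescaled to the same FPKM total, the median of the members was 0.08 and that of all genes -0.20, 25 of 38 members had a higher mean in KO (34.3% of all genes), and 1 member, Tyms (log2 fold change 0.65), had an unadjusted p under 0.05 in limma (3.83% of all genes were higher at that p). The 12 members whose direction turned to lower in KO under rescaling were Cdc6, Mcm3, Mcm7, Cdc7, Rfc2, Pole, Prim2, Lig1, Rrm2, Uhrf1, Chaf1a and Chaf1b. None of the 7 with an unadjusted p under 0.05 was among them. The distance between the members' median and that of all genes was 0.32 as deposited and 0.28 rescaled. Rescaling multiplies all genes of a library by a common factor, so it shifts nearly all fold changes alike. This distance, and which members keep their direction, thus follow from the deposited fold changes and are no test of the scaling.

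**Figure D1:**
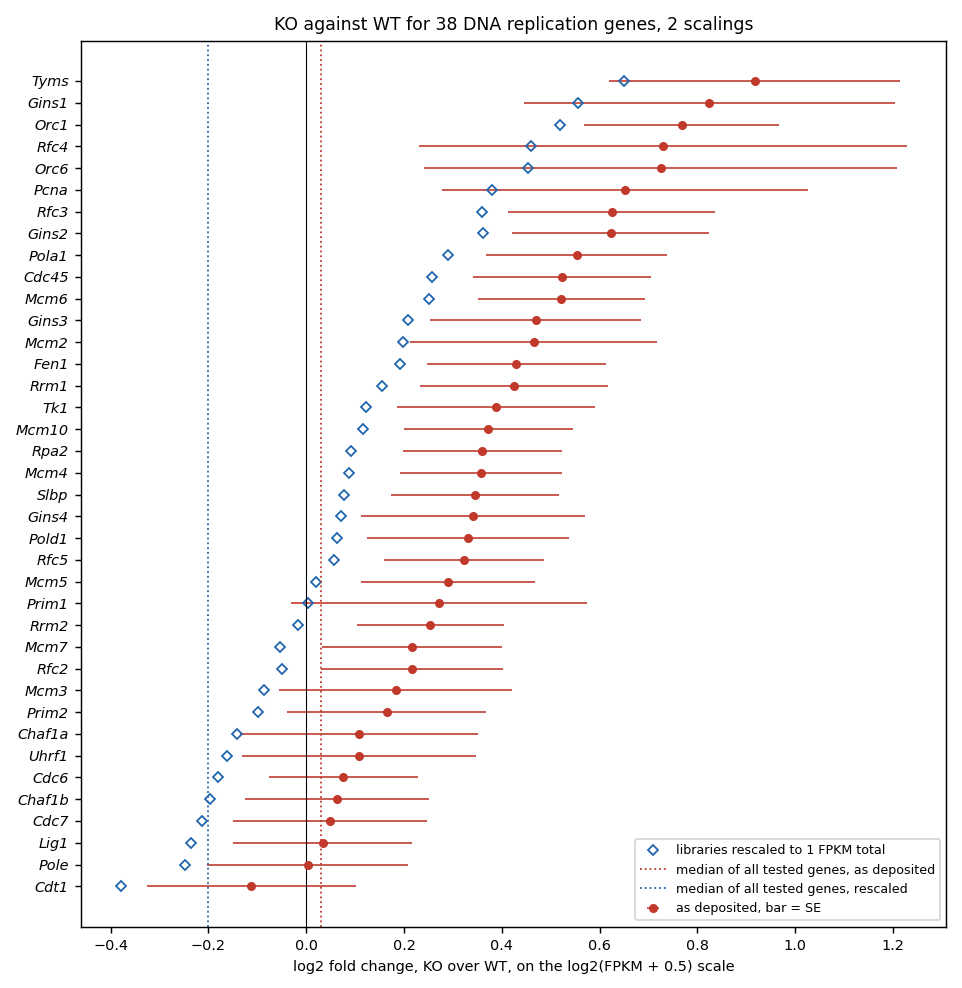
Log2 fold change of KO over WT for the 38 members (horizontal axis), ordered by size, with red points and SE bars for the deposited FPKM and open blue diamonds after rescaling every library to the same total; dotted lines mark the median of all 12654 tested genes under each scaling. As deposited 37 points lie right of 0, and after rescaling 25 do.

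Promoter windows of RefSeq on build GRCm38.p6 (the primary sequence of mm10), from 250 bases before to 50 after a transcription start, were found for 31 of the 38 members, as 37 windows. An E2F-type motif was searched on both strands as any of TTTCCCGC, TTTCGCGC, TTTGCCGC and TTTGGCGC. Forward and reverse forms can share letters and were each counted. It occurred in 13 of 37 windows (35.1%), each from a different member, against 4.19% of 10841 windows of tested genes and 2.26% of all 32851 windows. The motif CCAAT, bound by NF-Y, shares a letter with such a match in 1 of the 37 windows, a window of Mcm7, and occurred in 59.5% of the members' windows against 38.4% for tested genes. A match is a description of the sequence and not a binding site. The 13 members with an E2F-type match had a median log2 fold change of 0.29 and the 18 without had 0.38. The following 7 windows are shown, 5′ to 3′ along the gene, with the E2F-type matches in capitals. Orc1, Mcm6, Rfc3 and Pola1 hold a match and lay higher in every KO library, Mcm3 and Cdt1 hold one and overlapped between groups, and Pcna, the most abundant member, holds none. Not shown are Tyms, Cdc45, Rfc5, Rpa2, Fen1, Rrm1, Rrm2 and Slbp, whose windows hold no match and which also lay higher in every KO library. Also not shown are Cdc6, Mcm5, Mcm7, Gins3, Pold1, Lig1 and Uhrf1, which hold a match and overlapped between groups. The members with a window that are not named here hold no match and overlapped.
Orc1, chr4:108579204-108579503, plus strand: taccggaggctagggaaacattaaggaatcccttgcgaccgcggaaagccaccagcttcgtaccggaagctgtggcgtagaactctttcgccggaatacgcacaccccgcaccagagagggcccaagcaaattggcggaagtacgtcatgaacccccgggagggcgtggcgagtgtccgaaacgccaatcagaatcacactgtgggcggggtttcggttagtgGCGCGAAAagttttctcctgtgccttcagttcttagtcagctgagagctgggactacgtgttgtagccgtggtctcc
Mcm6, chr1:128359656-128359955, minus strand: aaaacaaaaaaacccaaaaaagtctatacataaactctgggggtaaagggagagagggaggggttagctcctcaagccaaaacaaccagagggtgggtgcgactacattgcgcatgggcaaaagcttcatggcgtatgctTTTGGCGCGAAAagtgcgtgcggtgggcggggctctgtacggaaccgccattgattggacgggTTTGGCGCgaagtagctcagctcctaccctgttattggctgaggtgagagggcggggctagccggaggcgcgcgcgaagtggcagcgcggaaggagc
Rfc3, chr5:151651159-151651458, minus strand: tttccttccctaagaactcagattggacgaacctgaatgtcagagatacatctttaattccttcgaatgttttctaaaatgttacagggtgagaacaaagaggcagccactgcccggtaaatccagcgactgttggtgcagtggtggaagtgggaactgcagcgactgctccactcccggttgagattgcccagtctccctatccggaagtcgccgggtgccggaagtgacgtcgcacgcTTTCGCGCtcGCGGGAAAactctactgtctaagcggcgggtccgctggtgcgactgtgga
Pola1, chrX:93632106-93632405, minus strand: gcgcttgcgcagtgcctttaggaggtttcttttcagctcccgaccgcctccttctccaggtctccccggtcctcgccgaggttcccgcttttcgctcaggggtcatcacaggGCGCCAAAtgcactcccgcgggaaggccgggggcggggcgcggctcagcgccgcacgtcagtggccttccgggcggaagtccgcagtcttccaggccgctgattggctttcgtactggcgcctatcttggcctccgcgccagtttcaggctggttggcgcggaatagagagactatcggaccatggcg
Mcm3, chr1:20820263-20820562, minus strand: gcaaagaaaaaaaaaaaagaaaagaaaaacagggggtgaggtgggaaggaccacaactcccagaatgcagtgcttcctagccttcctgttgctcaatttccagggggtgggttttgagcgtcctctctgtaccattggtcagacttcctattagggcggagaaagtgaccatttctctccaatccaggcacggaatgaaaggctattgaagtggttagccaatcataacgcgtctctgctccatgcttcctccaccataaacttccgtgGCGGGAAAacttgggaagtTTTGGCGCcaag
Cdt1, chr8:122567765-122568064, plus strand: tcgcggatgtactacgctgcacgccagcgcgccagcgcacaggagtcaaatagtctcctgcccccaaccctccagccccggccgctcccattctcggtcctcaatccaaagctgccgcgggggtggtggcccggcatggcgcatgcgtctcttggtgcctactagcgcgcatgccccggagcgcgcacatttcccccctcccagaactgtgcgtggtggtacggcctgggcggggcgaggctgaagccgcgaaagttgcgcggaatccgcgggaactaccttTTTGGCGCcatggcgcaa
Pcna, chr2:132253131-132253430, minus strand: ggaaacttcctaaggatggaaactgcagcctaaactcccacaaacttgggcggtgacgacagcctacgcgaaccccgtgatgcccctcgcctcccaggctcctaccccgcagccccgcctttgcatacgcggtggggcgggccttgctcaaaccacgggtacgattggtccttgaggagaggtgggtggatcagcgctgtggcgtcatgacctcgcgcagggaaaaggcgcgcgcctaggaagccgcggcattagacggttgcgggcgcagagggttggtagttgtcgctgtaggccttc
Counted from the start site, the first match begins at -27 in Orc1, -110 in Mcm6 (the first of 3, of which 2 share letters), -10 in Rfc3 and -138 in Pola1, and at 19 in Mcm3 and 32 in Cdt1. Cdt1, the member with the lowest fold change, thus holds a match as Orc1 does.

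Origin licensing was represented by 10 members. Orc1, an ATPase subunit of the origin recognition complex, had 4.07, 3.99 and 6.29 FPKM in WT and 8.36, 8.21 and 8.41 in KO, with replicates 1 to 3 in that order here and below. The 3 KO libraries were nearly equal and all lay above WT replicate 3, the highest WT library. The means were 4.78 ± 1.303 and 8.33 ± 0.102 FPKM (SD, n = 3 each), and the log2 fold change was 0.77 with an SE of 0.200 (limma adjusted p = 0.117). Mcm6, a subunit of the MCM2-7 helicase, had 81.2, 76.9 and 97.8 FPKM in WT and 125.7, 125.9 and 115.0 in KO. Its groups did not overlap either (log2 fold change 0.52, SE 0.172, limma adjusted p = 0.158). Mcm5, the helicase subunit of highest mean over the deposited gene length, had 95.9, 90.7 and 116.6 FPKM in WT and 134.6, 116.1 and 119.0 in KO. Its lowest KO library fell within the WT range, and the log2 fold change was 0.29 with an SE of 0.179 (limma adjusted p = 0.380). Mcm4 did not overlap: its KO values of 90.2, 89.7 and 83.7 FPKM all exceeded the WT values of 65.1, 62.5 and 78.8. Mcm2, Mcm3 and Mcm7 overlapped, with log2 fold changes of 0.46, 0.18 and 0.22. Mcm2 was highest in KO replicate 3 (47.3 FPKM) and Mcm3 likewise (104.7), while WT replicate 3 was the highest WT library for both (40.4 and 98.2).

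The remaining licensing factors differed among themselves. Cdt1, which brings MCM to the origin and is destroyed in S phase, was the 1 member with a lower mean in KO. It had 28.6, 30.1 and 43.6 FPKM in WT and 34.1, 26.5 and 32.8 in KO (log2 fold change -0.11, SE 0.214, limma adjusted p = 0.790). Its sign turned to 0.08 without WT replicate 3, the highest of its libraries. Cdc6, the ATPase that loads MCM, had 9.58, 9.32 and 10.96 FPKM in WT and 10.9, 9.40 and 11.3 in KO, a log2 fold change of 0.08. Orc6, the smallest subunit of the origin recognition complex, had 35.9, 30.4 and 34.7 FPKM in WT and 60.03, 111.8 and 25.8 in KO. KO replicate 2 was above every WT library and KO replicate 3 below every one, and the log2 fold change of 0.72 had an SE of 0.483. Orc6 overlaps the protein-coding gene Vps35 on the opposite strand.

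Levels between genes are compared per length, and the deposited gene length counts all annotated exons of a gene. For Mcm2 that length was 1.99 times its longest annotated transcript, for Mcm4 it was equal, and over the 38 members the ratio ran from 1 to 2.43 (Prim2). Over the deposited length Mcm2 had a mean of 35.2 FPKM over the 6 libraries, and Mcm3 to Mcm7 had 78.3 to 112.1. Over the longest transcript Mcm2 stood at 70.02 and Mcm4 at 78.3 FPKM. The distance of Mcm2 from Mcm4 thus depends on the length used.

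Among the 7 genes of helicase activation, Cdc45, the factor that joins MCM and GINS in the active helicase, had 18.8, 16.2 and 22.2 FPKM in WT and 30.8, 27.8 and 24.1 in KO. The groups did not overlap (log2 fold change 0.52, SE 0.181, limma adjusted p = 0.170). The 4 GINS subunits, which form 1 complex, shared 1 order within KO, with replicate 2 highest and replicate 3 lowest. Gins2 had 9.33, 8.65 and 11.1 FPKM in WT and 16.9, 17.4 and 11.8 in KO, without overlap (log2 fold change 0.62, SE 0.201, limma adjusted p = 0.155). The margin between KO replicate 3 and WT replicate 3 was narrow. Gins1 had 25.2, 20.9 and 24.6 FPKM in WT and 50.6, 65.5 and 22.3 in KO. Gins4 had 53.3, 43.9 and 42.3 FPKM in WT and 67.5, 69.1 and 43.4 in KO. In both genes KO replicates 1 and 2 exceeded every WT library and KO replicate 3 lay inside the WT range. Their log2 fold changes were 0.82 (SE 0.380, limma adjusted p = 0.258) and 0.34 (SE 0.228, limma adjusted p = 0.418). Gins3 followed the same order, with 13.2, 16.3 and 9.43 FPKM in KO against 8.49 to 9.501 in WT. Mcm10, a factor that stabilises the starting helicase, had a log2 fold change of 0.37 with overlap. Cdc7, the catalytic subunit of the kinase that fires origins, had 15.1, 12.2 and 9.35 FPKM in KO against 11.1 to 12.1 in WT and a log2 fold change of 0.05.

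Pcna, the sliding clamp that tethers polymerases to DNA, was the most abundant member. It had 298, 259 and 326 FPKM in WT and 496, 735 and 268 in KO replicates 1 to 3. KO replicate 3 lay within the WT range and KO replicate 2 was highest, so the KO mean of 499.8 ± 234 (SD, n = 3) is spread widely. The log2 fold change was 0.65 with an SE of 0.374 (limma adjusted p = 0.349). Of the subunits of the RFC clamp loader, Rfc4 had 63.5, 49.8 and 55.98 FPKM in WT and 110.4, 179.6 and 41.02 in KO. It thus followed the order of Pcna, with KO replicate 3 below every WT library (log2 fold change 0.73, SE 0.499, limma adjusted p = 0.426). Rfc4 overlaps Eif4a2 on the opposite strand. Rfc3 had 13.5, 12.7 and 14.97 FPKM in WT and 25.1, 24.4 and 15.9 in KO, without overlap (log2 fold change 0.62, SE 0.211, limma adjusted p = 0.163). Rfc5 did not overlap, at 0.32, and Rfc2 did, at 0.22.

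**Figure D2:**
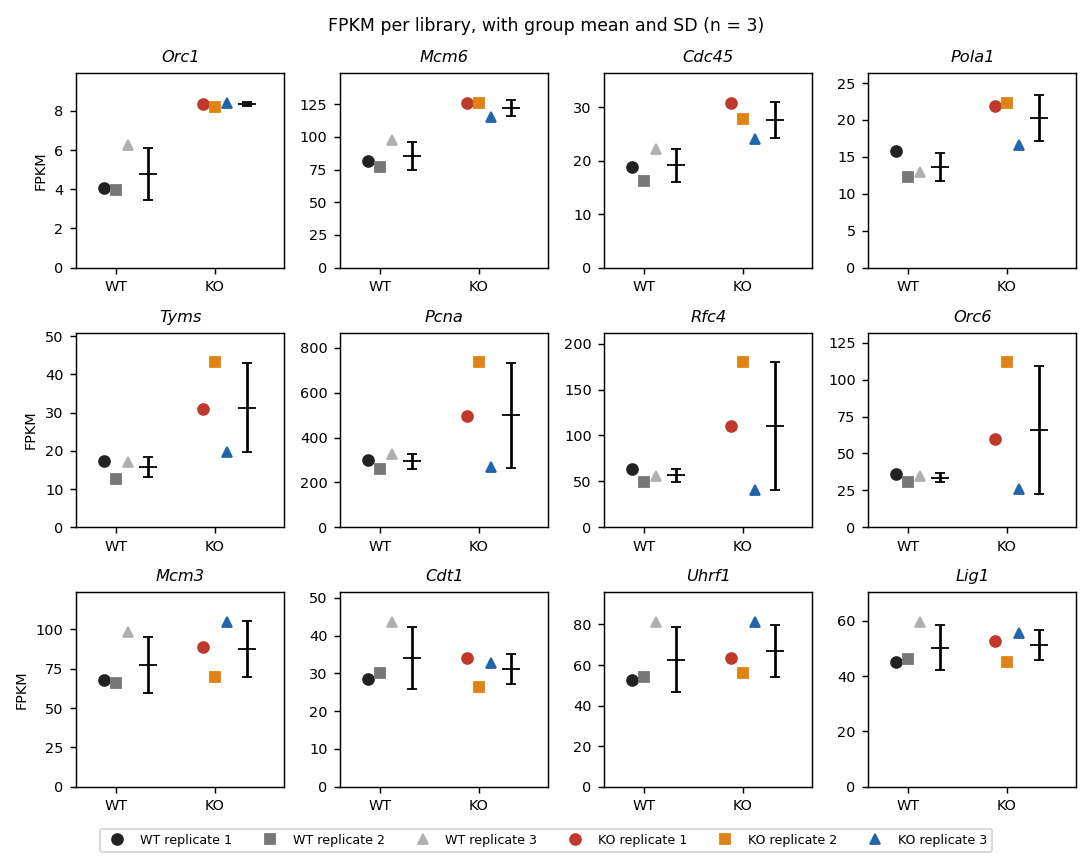
FPKM of 12 members in each library (vertical axis from 0; 1 symbol per library) with the group mean and SD (n = 3) as black bars. In Orc1, Mcm6, Cdc45, Pola1 and Tyms all 3 KO libraries lie above WT, in Pcna, Rfc4 and Orc6 KO replicate 2 is highest and KO replicate 3 lies within or below WT, and in Mcm3, Cdt1, Uhrf1 and Lig1 the groups overlap.

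Among the polymerase genes, Pola1, the catalytic subunit of the polymerase that starts each strand, had 15.8, 12.2 and 12.9 FPKM in WT and 21.9, 22.3 and 16.7 in KO. The groups did not overlap (log2 fold change 0.55, SE 0.185, limma adjusted p = 0.161). Pola1 lies on chromosome X. KO replicate 3, the 1 library without Xist reads, was the lowest KO library for it, as it was for 25 of the 38 members in all. The catalytic subunits of the replicative polymerases showed smaller differences. Pold1 of the lagging strand had 26.2, 24.1 and 38.5 FPKM in WT and 36.7, 35.2 and 37.7 in KO (log2 fold change 0.33, SE 0.207). Pole of the leading strand had means of 7.90 ± 1.35 and 7.95 ± 1.56 FPKM (SD, n = 3 each) and a log2 fold change of 0.003. The primase subunits Prim1 and Prim2 had 0.27 and 0.16. Prim1 stood at 37.2, 30.6 and 27.3 FPKM in WT and at 43.9, 52.3 and 24.1 in KO, with KO replicate 3 below every WT library. Rpa2, a subunit of the complex that coats single-stranded DNA, had 36.7, 33.4 and 36.7 FPKM in WT and 52.5, 45.4 and 40.4 in KO, without overlap (log2 fold change 0.36, SE 0.163, limma adjusted p = 0.252).

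The joining of fragments was represented by 2 genes. Lig1, the ligase that seals them, had 44.98, 46.2 and 59.6 FPKM in WT and 52.8, 45.2 and 55.7 in KO, with a log2 fold change of 0.03 (SE 0.183, limma adjusted p = 0.931). Fen1, the nuclease that trims their flaps, had 3.28, 3.76 and 3.90 FPKM in WT and 5.38, 4.12 and 5.88 in KO, without overlap (log2 fold change 0.43, SE 0.183, limma adjusted p = 0.231). Fen1 was the lowest member, resting on 130 to 257 reads per library, and it overlaps Tmem258 on the opposite strand. In all, 11 members overlap a protein-coding gene on the other strand, and the strand setting of the counting is not given in the sources used here.

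The 4 genes of nucleotide supply all had a higher mean in KO (52.4% of all genes), and 3 of them did not overlap (14.5% of all genes). Tyms, the thymidylate synthase, showed the highest fold change of all members. It had 17.3, 12.7 and 17.2 FPKM in WT and 30.9, 43.2 and 19.8 in KO (log2 fold change 0.92, SE 0.297, limma adjusted p = 0.156). Rrm1 and Rrm2 encode the large and small subunits of ribonucleotide reductase, which makes deoxynucleotides. Rrm1 had 43.1, 34.5 and 39.8 FPKM in WT and 63.9, 50.8 and 44.5 in KO (log2 fold change 0.42, SE 0.193, limma adjusted p = 0.252). Rrm2 had 81.6, 88.1 and 88.2 FPKM in WT and 105.04, 103.2 and 99.4 in KO, a small and even difference (log2 fold change 0.25, SE 0.151, limma adjusted p = 0.365). Tk1, the thymidine salvage kinase, overlapped, at 15.4 to 23.4 FPKM in WT and 21.3 to 27.5 in KO.

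The chromatin factors had the lowest median of the 7 roles, 0.11. Uhrf1, which brings DNA methylation to new strands, had 52.6, 54.02 and 81.2 FPKM in WT and 63.7, 56.1 and 80.99 in KO (log2 fold change 0.11, SE 0.239, limma adjusted p = 0.820). WT replicate 3 and KO replicate 3 were nearly equal and above the other libraries. Chaf1a and Chaf1b, subunits of the CAF-1 histone chaperone, had log2 fold changes of 0.11 and 0.06 with overlap. Slbp, which binds the stem-loop of histone mRNA, had 23.1, 20.5 and 24.3 FPKM in WT and 32.9, 29.8 and 24.5 in KO. Its groups did not overlap, by a narrow margin in KO replicate 3 (log2 fold change 0.34, SE 0.171, limma adjusted p = 0.288).

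**Figure D3:**
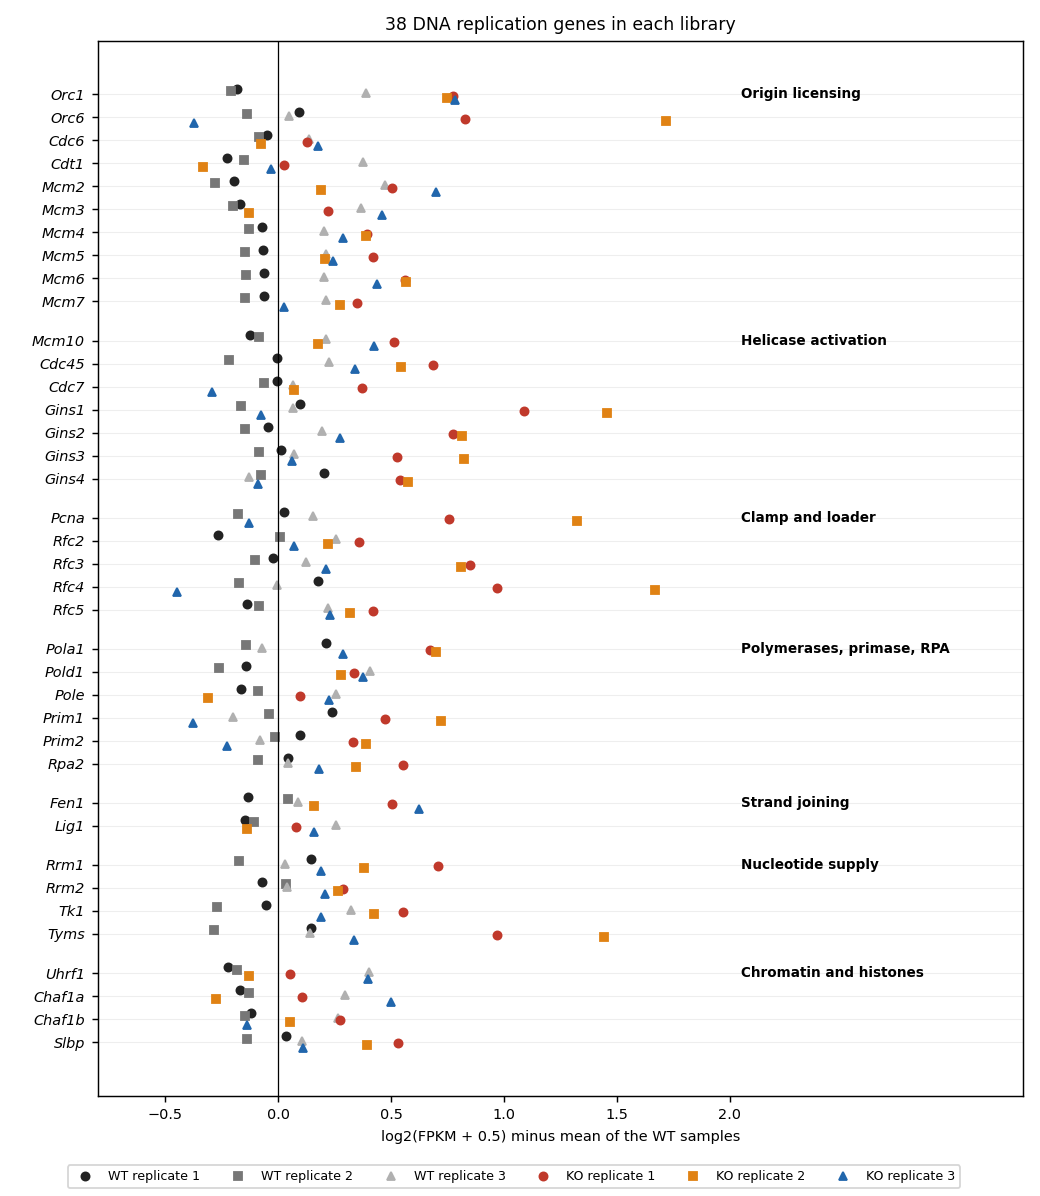
Each member in each library as log2(FPKM + 0.5) minus the mean of the 3 WT samples (horizontal axis), grouped by role. KO replicate 1 (red circles) lies right of 0 for 38 of 38 members, KO replicate 2 (orange squares) for 31 and KO replicate 3 (blue triangles) for 28.

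Library by library, the 3 KO samples did not share 1 profile. Relative to the WT mean, the members' median was 0.50 in KO replicate 1, 0.36 in KO replicate 2 and 0.20 in KO replicate 3, where all genes had medians of 0.02, 0.02 and 0.0015. KO replicate 1 was above the WT mean for 38 of 38 members, KO replicate 2 for 31 and KO replicate 3 for 28. Of the members, 30, 25 and 20 exceeded every WT library in KO replicates 1 to 3, against 35.9%, 38.8% and 35.2% of all genes. The WT samples differed as well. WT replicate 3 was the highest WT library for 29 members and its median was also 0.20, while WT replicates 1 and 2 had -0.06 and -0.14.

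By class of transcript length, KO replicates 2 and 3 differed most from each other in the members with short transcripts, though single members departed from this. The log2 difference between these 2 libraries was 2.12 for Rfc4, 2.096 for Orc6, 1.53 for Gins1 and 1.45 for Pcna, and -0.78 for Chaf1a, -0.59 for Mcm3 and -0.54 for Pole. Tyms and Prim1, with longest transcripts of 3884 and 3128 bases, had 1.11 and 1.10. That was more than the short Gins4 (0.66) and Rpa2 (0.17). In the 6 members whose longest transcript is under 2000 bases (Gins1, Gins4, Orc6, Pcna, Rfc4 and Rpa2) KO replicate 2 was higher in 6, with a median of 1.49. All 4362 tested genes of that length had a median of 0.38. In the 24 members from 2000 to under 4000 bases the median was 0.145, and in the 8 of 4000 bases or more it was -0.06, against -0.06 and -0.29 for all genes of those lengths. Over the 38 members the difference had a Spearman correlation of -0.48 with transcript length and -0.63 with its GC content. Over 12640 tested genes these were -0.32 and -0.34. All points come from the same 2 libraries. Within WT, the deviation of WT replicate 3 from the WT mean had a correlation of 0.67 with GC over the members and 0.27 over all genes. Histone mRNAs without poly(A) tails followed the same order of libraries: 36 such genes summed to 328, 401 and 148.0 FPKM in KO replicates 1 to 3 and to 160.1 to 325.3 in WT, with 4 of them at 0 in all 6 libraries. The part of these features in the genotype difference was not tested.

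**Figure D4:**
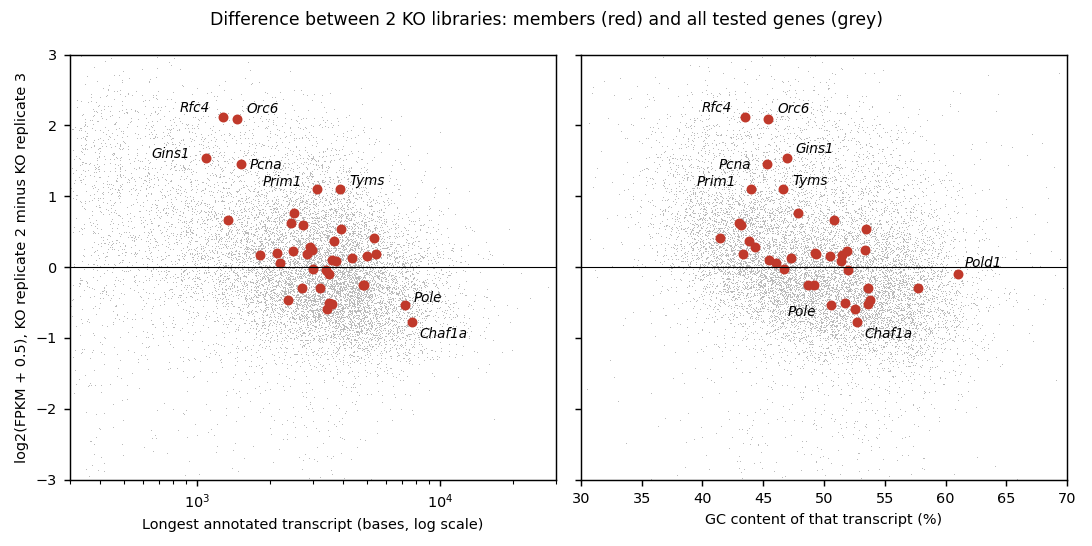
Difference between KO replicate 2 and KO replicate 3 in log2(FPKM + 0.5) (vertical axis) against the longest annotated transcript (left, log axis) and its GC content (right), with members in red and all tested genes in grey. Rfc4, Orc6, Gins1 and Pcna lie highest and Chaf1a lowest among the members, and 617 of the 12640 genes drawn fall outside an axis range, with 0 members among them.

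Leaving out 1 library changed which members were called. Without KO replicate 3, 9 members were called by limma, all higher in KO (8.12% of all genes were called higher): Orc6, Gins1, Gins2, Gins3, Pcna, Rfc3, Rfc4, Pola1 and Tyms. The log2 fold changes were then 1.27 for Orc6, 1.27 for Gins1, 1.32 for Rfc4 and 1.04 for Pcna, and the limma adjusted p of the 9 lay between 0.0344 and 0.0436. In the same fit the log2 fold changes of Pole, Lig1, Uhrf1 and Chaf1a were -0.11, -0.03, -0.04 and -0.09. Without KO replicate 2, 0 members were called (0.0395% of all genes), 6 had an unadjusted p under 0.05 in limma and a higher mean in KO (9.92% of all genes), and the changes of Orc6, Rfc4 and Pcna were 0.23, 0.26 and 0.31. Orc1 stayed between 0.76 and 0.78 whichever of these 2 libraries was left out. Without WT replicate 3, 12 members had an unadjusted p under 0.05 in limma and a higher mean in KO (11.8% of all genes). Without WT replicate 2 or KO replicate 1 the count was 1 in each fit (5.65% and 6.76% of all genes), and without WT replicate 1 it was 3 (6.69%).

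The rest of the pathway was read from 55 further replication genes. In limma 0 were called (0.0395% of all genes). The mean was higher in KO for 44 (52.4% of all genes) and lower for 11. In limma 15 lay higher (11.5% of all genes) and 1 lower (10.2% of all genes) with an unadjusted p under 0.05. The median log2 fold change was 0.36 against 0.03 for all genes. Orc2, another subunit of the origin recognition complex, had 12.8, 12.5 and 15.5 FPKM in WT and 29.4, 40.3 and 24.6 in KO (log2 fold change 1.15, SE 0.217, limma adjusted p = 0.0884). Its groups lay far apart, unlike those of its partner Orc6. Dctpp1, which clears damaged deoxycytidine triphosphates, had 45.99, 41.4 and 57.6 FPKM in WT and 122.9, 122.5 and 71.97 in KO (log2 fold change 1.09, SE 0.263, limma adjusted p = 0.109). The topoisomerase Top1 had a log2 fold change of 0.72 and the nucleases Dna2 and Exo1 had 0.84 and 0.61. The small polymerase epsilon subunits Pole3 and Pole4 had 0.60 and 0.80, where the catalytic subunit Pole had 0.003. Samhd1, which breaks down deoxynucleotides, was the 1 of the 11 lower genes with an unadjusted p under 0.05 in limma. It had 95.8, 109.5 and 52.6 FPKM in WT and 41.5, 35.9 and 39.6 in KO, without overlap (log2 fold change -1.07, SE 0.286, limma adjusted p = 0.122).

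Genes of the neighbouring phases gave a reference. Of 26 measured G1/S regulators, limma gave 8 a higher (11.5% of all genes) and 2 a lower level (10.2% of all genes) with an unadjusted p under 0.05. Their median was 0.30 against 0.03 for all genes. Among them, Ccne1, the cyclin that drives entry into S phase, had 19.2, 19.99 and 27.5 FPKM in WT and 35.6, 30.5 and 28.1 in KO (log2 fold change 0.50, SE 0.195, limma adjusted p = 0.203). E2f1 overlapped, at 8.83 to 14.9 FPKM in WT and 13.1 to 15.6 in KO. Of 36 genes of G2 phase and mitosis 0 were higher and 2 lower at that p, against the same 11.5% and 10.2% of all genes. Of these genes 0 were called (0.0395% of all genes), and the median was 0.04. Mki67, the proliferation marker, had means of 79.04 ± 9.25 and 81.4 ± 17.6 FPKM (SD, n = 3 each) and a log2 fold change of 0.02. Ccnb1, the mitotic cyclin, had a log2 fold change of 0.46, and its 38.5 FPKM in KO replicate 3 lay among the WT values of 35.5 to 39.9. Rescaled to equal totals the medians were 0.08 for the members, 0.10 for the other replication genes, 0.04 for G1/S and -0.23 for G2 and mitosis, and -0.20 for all genes. The difference between these lists was not tested.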

How the data were processed

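RNA was sequenced from 3 WT and 3 KO samples, grouped by the samples' labels. The authors deposited FPKM values per gene, per the file headers. The submitters' processing notes name the build mm10, featureCounts 1.5.0-p3 and HISAT2 2.0.5, and also DESeq2 and Trim Galore. Annotation, strand setting and the handling of reads with several matches: not given in the sources used here. FPKM steps gave whole reads (tolerance 0.05), which set the depth of 14932604 to 16819913 reads per library and served limma-voom as an alternative. Of the value columns, 0 were left without a sample.

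The 12654 genes averaging 0.5 FPKM or more were tested with limma 3.58.1 in R 4.3.3 on log2(FPKM + 0.5), with a mean-variance trend and Benjamini-Hochberg adjustment over all of them. Single genes were also compared with an exact permutation test (scipy 1.17.1). The fit, tested on simulated data with 12654 genes, called 88 of 100 genes changed 2-fold, 96 of 100 changed 4-fold and 19 of 12454 unchanged genes. The simulated libraries held no differences in composition like those of KO replicates 2 and 3. These counts therefore do not tell how often such changes would be called here. Ptpmt1, at a log2 fold change of -1.26, was itself not called (limma adjusted p = 0.0884). Transcript length and GC content came from GENCODE M21, which matched 54495 of 54532 identifiers, and promoters from RefSeq (GRCm38.p6). Python 3.11.15, pandas 2.3.3 and matplotlib 3.10.9 were used.

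The members and gene lists were chosen with earlier results of these data known. Values for every sample are given for the 2 members of highest mean FPKM in each role, every member with an unadjusted p under 0.05 and the members of largest and smallest log2 fold change. From the other replication genes up to 8 of smallest p are named, with E2f1, Ccne1, Ccnb1 and Mki67 for reference. The further members with values for every sample (Mcm4, Orc6, Cdc6 and Pold1), the length classes, the GC comparison and the promoters shown were chosen after values were seen. The alternatives were other pseudocounts, filters, scaling and trend settings, sample weights, a replicate block, limma-voom and leaving out each sample.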

Additional observations from a re-analysis of the deposited data

How the results depend on the processing

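The median log2 fold change of the members (0.351) moved to 0.083 with every sample rescaled to the same FPKM total, where the count of members with an unadjusted p under 0.05 was 1 in place of 7. Rescaling also turned Cdc6 (-0.18), Mcm3 (-0.087), Mcm7 (-0.055), Cdc7 (-0.21), Rfc2 (-0.049), Pole (-0.25), Prim2 (-0.10), Lig1 (-0.24), Rrm2 (-0.016), Uhrf1 (-0.16), Chaf1a (-0.14) and Chaf1b (-0.20). The count of genes called by limma, 5 of 12654, was 3 with a pseudocount of 1, 3 with no filter on low values, 14 with no trend and 1 with limma-voom. Sample weights gave 7200 called genes, among them 32 of the 38 members in place of 0, all higher in KO (30.3% of all genes were called higher). The members' median was then 0.516, 33 were higher with an unadjusted p under 0.05 (32.9% of all genes), and Cdt1 turned to 0.15. Those weights ran from 0.154 for KO replicate 3 to 36.4 for KO replicate 1, and their estimation did not reach its tolerance. The cause of these shifts was not tested.

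Leaving out 1 sample at a time gave 2 to 1733 called genes and 1 to 19 members with an unadjusted p under 0.05 (19.5% of all genes higher at that p in the last), both highest without KO replicate 3. It gave ranges of -0.23 to 0.076 for Cdt1, -0.11 to 0.22 for Cdc7, -0.11 to 0.16 for Pole, -0.04 to 0.16 for Lig1, -0.037 to 0.309 for Uhrf1, -0.087 to 0.301 for Chaf1a and -0.043 to 0.196 for Chaf1b. Of 228 such values of single members 205 kept their direction and side of the threshold, 9 passed it and 14 turned, and of 342 under the other settings 297, 32 and 13 did.

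The replicate numbers were not taken to pair the samples. Same-numbered deviations correlated at 0.132, 0.067 and 0.331, and WT replicate 1 correlated best with KO replicate 2 (0.267). With the replicate block 12 genes were called and 8 members were higher with an unadjusted p under 0.05 (12.4% of all genes). The lowest member had at least 130 reads in each library, and the part of depth in these results was not tested.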
